A study of Mus musculus with 4 samples.

Results

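Matrix metalloproteinases (MMPs), the related protease Adamts1 and the tissue inhibitors of metalloproteinases (TIMPs) were described in single-cell RNA-seq of whole mouse lung. The members were chosen by name from the deposited count matrix. They were Mmp2, Mmp3, Mmp9, Mmp14, Mmp19, Adamts1, Timp1, Timp2 and Timp3, and all 9 were found among the 20076 gene symbols of the matrix. The WT group was 2 mice of genotype ERG fl/fl without Cre, and the ERG CKO group was 2 mice of genotype CDH5-CreER(T):ERG fl/fl. All 4 mice, the WT mice included, carried floxed Erg alleles on a C57/BL6 background and received 5 daily injections of 0.5 mg tamoxifen, and whole lungs were taken 90 days after the injections. Ages are not given in the labels. The Cdh5 promoter drives the inducible Cre in endothelium, and fibroblasts, mural cells and most leukocytes are not its target. With 2 mice and 2 libraries per group, each library was taken as 1 mouse.

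MMPs are zinc-dependent enzymes that cut collagens, elastin, basement membrane and many cell surface proteins. Most are secreted as inactive proenzymes, and Mmp14 is anchored in the membrane and activates the proenzyme of Mmp2. Adamts1 is a secreted protease that cuts proteoglycans such as versican and aggrecan. TIMPs bind the active site of these enzymes, and Timp3, unlike the soluble Timp1 and Timp2, is held in the extracellular matrix. In the lung the balance of proteases and inhibitors is known for its part in alveolar structure, leukocyte entry and fibrosis. ERG is an ETS family transcription factor of endothelium.

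The matrix held 9363 cells, of which WT replicate 1 gave 2264, WT replicate 2 gave 2150, ERG CKO replicate 1 gave 3097 and ERG CKO replicate 2 gave 1852. Values are given in this order, replicate 1 before replicate 2. The libraries held 11263911 to 18646776 UMIs (unique molecular identifiers, each marking 1 captured RNA molecule), with medians of 4611 to 4899 UMIs per cell, and pairs of libraries shared 0 to 4 cell barcodes. Levels are given as CPM, the UMIs of a gene per 1000000 UMIs of the cells of a class in 1 library. CPM compares a gene between samples and classes and is not used to rank genes against each other. A gene was called when its Benjamini-Hochberg adjusted p was at most 0.05 in the edgeR quasi-likelihood test of sums per library, run over all genes of the class. Erg itself was at 85.0 and 89.5 CPM in WT endothelial cells (ECs) and at 107 and 82.8 CPM in ERG CKO ECs, and since a 3′ tag can lie outside the deleted part, these counts do not check the deletion. Xist was detected in replicate 1 of both groups and Ddx3y in replicate 2 of both groups, so mice with and without Y-linked reads were balanced. Cells above 10% mitochondrial UMIs made up 7.95% and 5.81% in WT versus 11.8% and 9.56% in ERG CKO.

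In GRCm38 (mm10), GENCODE places the members on 8 different chromosomes. The proteases lie at chr8:92827291-92853420 (Mmp2, plus strand), chr9:7445822-7455975 (Mmp3, plus), chr2:164940780-164955850 (Mmp9, plus), chr14:54431612-54445364 (Mmp14, plus), chr10:128790910-128800824 (Mmp19, plus) and chr16:85793827-85803113 (Adamts1, minus). The inhibitors lie at chrX:20870166-20874735 (Timp1, plus), chr11:118301069-118355740 (Timp2, minus) and chr10:86300372-86349506 (Timp3, plus). All 9 are annotated as protein-coding genes.

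Promoter sequences of RefSeq (GRCm38.p6, 250 bases before to 50 after the annotated start) were matched for 6 of the 9 members, Mmp3, Mmp14, Adamts1, Timp1, Timp2 and Timp3. The sequences before the start are shown for the 3 members whose levels the results turn on, because ERG belongs to the ETS factors, which bind a GGAA core. Capitals mark GGAA on either strand (written TTCC where it lies on the minus strand) and the AP-1 motif TGANTCA. The windows are chr9:7445572-7445821 for Mmp3, chr14:54431348-54431597 for Mmp14 and chr10:86300162-86300371 for Timp3, all on the plus strand and all ending before the first annotated exon.
Mmp3: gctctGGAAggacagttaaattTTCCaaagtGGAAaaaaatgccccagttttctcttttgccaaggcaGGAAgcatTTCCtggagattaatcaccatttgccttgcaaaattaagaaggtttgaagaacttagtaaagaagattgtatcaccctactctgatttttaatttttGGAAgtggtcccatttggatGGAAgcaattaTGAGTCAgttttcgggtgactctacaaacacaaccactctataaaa
Mmp14: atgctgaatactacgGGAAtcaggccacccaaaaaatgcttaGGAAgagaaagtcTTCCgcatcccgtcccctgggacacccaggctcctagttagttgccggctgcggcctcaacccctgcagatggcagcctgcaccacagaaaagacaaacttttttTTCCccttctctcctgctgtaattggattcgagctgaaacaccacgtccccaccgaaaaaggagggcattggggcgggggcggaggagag
Timp3: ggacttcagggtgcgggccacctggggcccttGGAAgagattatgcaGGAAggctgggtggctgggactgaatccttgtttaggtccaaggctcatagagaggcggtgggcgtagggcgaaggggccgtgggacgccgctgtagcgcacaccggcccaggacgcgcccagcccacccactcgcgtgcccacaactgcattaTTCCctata
In the 300-base windows Mmp3 held GGAA at 7 places, a number that 8.02% of the 32851 mouse promoters of the same length reached or passed. Timp1 also held 7, Mmp14 held 5, Timp3 held 3, and Adamts1 and Timp2 held 2 each, against at least 1 match in 96.0% of all promoters. The number of Mmp14 was reached or passed by 28.6% of promoters, that of Timp3 by 66.3% and that of Adamts1 and Timp2 by 84.6%. The AP-1 motif was found in Mmp3 alone of the 6, at bases -46 to -40 (as TGAGTCA, which reads as TGACTCA on the other strand), and in 7.81% of all promoters. These matches are letters in a window and were not tested as binding sites.

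Cells were grouped into 17 named classes from fixed marker lists. Clusters 3, 11 and 12 (692, 323 and 293 cells) stayed unnamed under the fixed rules and entered no tested class. Clusters 3 and 12 matched endothelial markers best, at medians of 924.5 and 1167 UMIs per cell. Cluster 3 held 223 WT and 469 ERG CKO cells, and cluster 12 held 118 WT and 175 ERG CKO cells. Cluster 11 matched T cell markers best. The members fell into a stromal, an endothelial and a leukocyte group by the classes that held at least 10% of their UMIs over the 4 libraries, here called producing classes. Fibroblasts held 91.2% of Mmp3 UMIs, 71.4% of Mmp2 UMIs and 55.9% of Timp1 UMIs. ECs held 70.9% of Adamts1 UMIs, 63.1% of Timp3 UMIs, 48.3% of Timp2 UMIs and 39.7% of Mmp14 UMIs. Neutrophils held 90.7% of Mmp9 UMIs and alveolar macrophages 87.5% of Mmp19 UMIs. Fibroblasts were a further producing class of Mmp14 (23.6%), Timp2 (15.5%), Timp3 (14.1%) and Adamts1 (11.2%), and ECs of Timp1 (24.6%) and Mmp2 (19.0%). These shares depend on how many cells of each class were captured, so levels are given next.

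**Figure D1:**
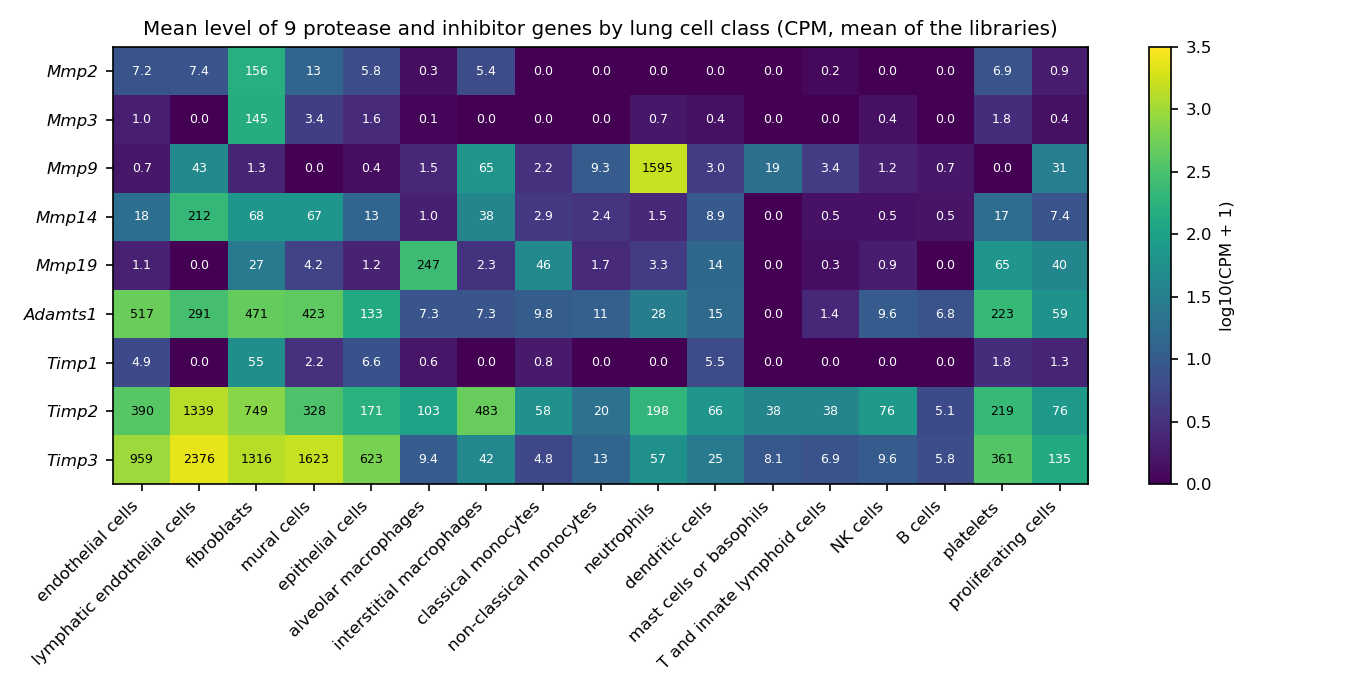
Mean CPM of the 9 members (rows) in 17 cell classes (columns), with the value printed and colour on a log10(CPM + 1) scale. Mmp3 (145 CPM) and Mmp2 (156 CPM) stand out in fibroblasts, Mmp9 (1595 CPM) in neutrophils and Mmp19 (247 CPM) in alveolar macrophages, whereas Timp2 and Timp3 are spread over endothelial and stromal classes.

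Among the secreted proteases, Mmp3 (stromelysin-1) averaged 145 ± 135 CPM in fibroblasts (SD, n = 4 libraries) and at most 3.43 CPM in any other class. Mmp2 (gelatinase A) averaged 156 ± 65.9 CPM in fibroblasts and 12.7 ± 14.8 CPM in mural cells, the next class. For both genes the lowest fibroblast library lay above the highest mural library. Mmp9 (gelatinase B), stored in neutrophil granules, averaged 1595 ± 375 CPM in neutrophils and 65.0 ± 116 CPM in interstitial macrophages, whose range began at 0. Mmp19 averaged 247 ± 27.5 CPM in alveolar macrophages and 65.2 ± 31.1 CPM in platelets, again with no overlap of libraries.

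The other members were broader. Mmp14 was highest in lymphatic ECs, at 212 ± 62.1 CPM (SD, n = 4), but on 20 UMIs from 26 cells. Fibroblasts (68.3 ± 18.2 CPM) and mural cells (67.5 ± 21.9 CPM) did not differ beyond their spread for Mmp14. Interstitial macrophages followed at 38.3 ± 15.3 CPM, on 14 UMIs from 78 cells, and then blood vessel ECs at 18.0 ± 8.47 CPM. Adamts1 did not separate ECs (517 ± 135 CPM), fibroblasts (471 ± 56.5 CPM) and mural cells (423 ± 264 CPM), whose ranges overlapped. Timp1 averaged 54.6 ± 32.9 CPM in fibroblasts, and no other class exceeded 6.57 CPM. Timp2 was ordered with lymphatic ECs at 1339 ± 274 CPM, fibroblasts at 749 ± 59.6 CPM, interstitial macrophages at 483 ± 43.3 CPM, ECs at 390 ± 28.5 CPM and mural cells at 328 ± 15.4 CPM, and no overlap between neighbours. Timp3 ranged over lymphatic ECs (2376 ± 546 CPM), mural cells (1623 ± 1695 CPM), fibroblasts (1316 ± 279 CPM), ECs (959 ± 477 CPM) and epithelial cells (623 ± 282 CPM), and each of these overlapped the next.

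The genes with the most similar pattern were sought by Pearson correlation of log2(CPM + 10) over 61 sums of 16 classes and 4 libraries. These sums share libraries and classes, so the correlations are descriptions. Mmp3 was closest to Clec11a (r = 0.947), Lum (0.941) and Hhip (0.939), and Mmp2 to Abca8a (0.948), Ptprd (0.946) and Sod3 (0.945). Mmp9 was closest to Mrgpra2b (0.961), Nlrp12 (0.9498) and Retnlg (0.945). For Adamts1 the closest genes were Ptprg (0.9501), Dlc1 (0.9497) and Ramp2 (0.947), and for Timp3 they were Serpinh1 (0.942), Lamb2 (0.935) and Parva (0.935). Mmp14 had Selm (0.873), Wtip (0.868) and Gpx3 (0.863), Timp1 had Cpxm1 (0.873), Robo2 (0.871) and Pdzrn3 (0.868), and Timp2 had Tspan4 (0.862), Stard9 (0.827) and Sepp1 (0.826). The lowest values were those of Mmp19, with AI504432 (0.789), C530008M17Rik (0.774) and Afp (0.763).

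WT and ERG CKO libraries were then compared within classes, to ask which members differed after deletion in the endothelium. Of 45 pairs of a member and a class that passed the filter on low counts, 1 was called, which was Mmp3 in fibroblasts. Over the 14 classes tested, 0.45% of all gene and class pairs were called. Timp3 and Mmp14 in ECs lay just outside the threshold, with adjusted p = 0.0531 and 0.0521 in edgeR. The other members showed no call in any class.

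**Figure D2:**
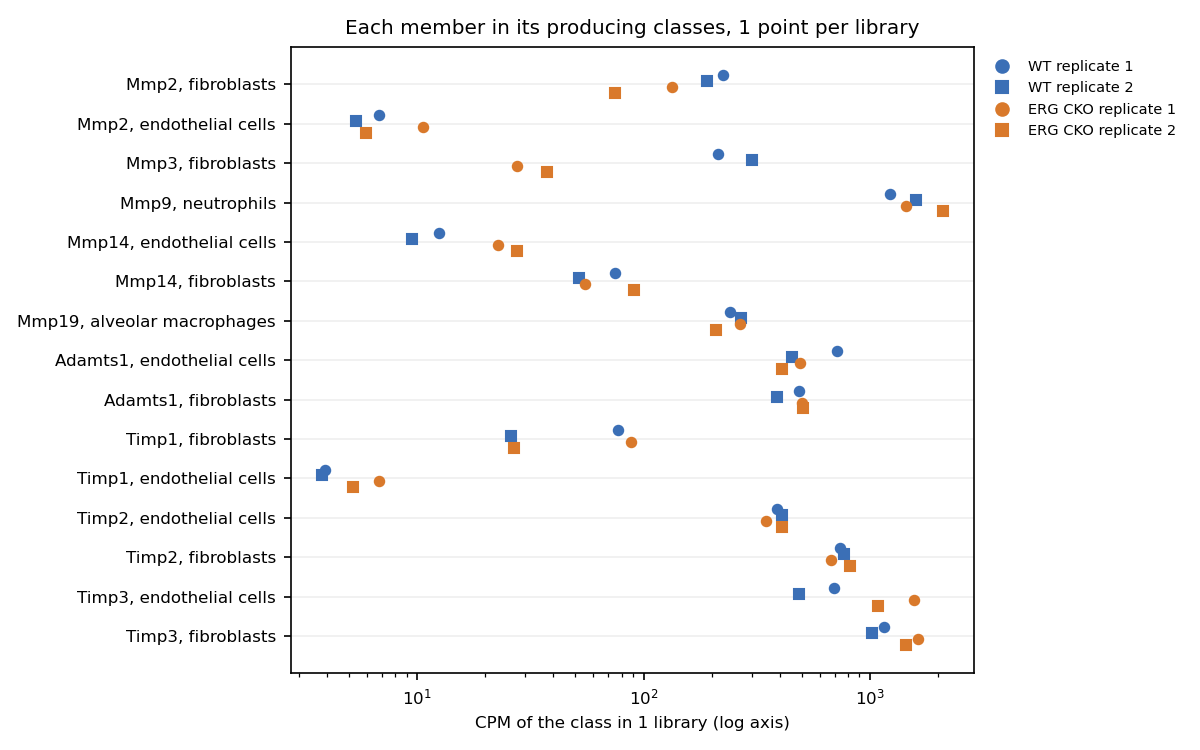
CPM of each member (log axis) in its 15 pairs with a producing class, with 1 point for each of the 2 WT (blue) and 2 ERG CKO (orange) libraries, circles for replicate 1 and squares for replicate 2. Mmp3 in fibroblasts lies at 213 and 302 CPM in WT and at 27.7 and 37.5 CPM in ERG CKO, whereas Mmp19 in alveolar macrophages overlaps between the groups.

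WT fibroblasts had 213 and 302 CPM of Mmp3 (163 and 116 UMIs), and ERG CKO fibroblasts had 27.7 and 37.5 CPM (26 and 7 UMIs). Both ERG CKO libraries were below both WT libraries, an order that 19.2% of all genes tested in fibroblasts had. Mmp3 fell by 3.06 on the log2 scale (SE 0.30, adjusted p = 0.000385, edgeR), an 8.35-fold difference. It was 1 of 8 members tested in fibroblasts, where 45 of 7618 genes (0.591%) were called. The share of fibroblasts with an Mmp3 UMI was 13.5% and 13.9% in WT versus 6.79% and 12% in ERG CKO. With each cell thinned to 1000 UMIs and 16, 13, 50 and 5 shallower cells left out, the shares were 7.27%, 8.47%, 1.79% and 5.00%. Fibroblasts had medians of 4965.5 and 4330 UMIs per cell in WT and of 2304.5 and 3522 in ERG CKO. In B cells, which should lack the gene, no Mmp3 UMI was found in any library at medians of 3936 to 5062 UMIs per cell. Mmp3 was carried by few cells, and a single cell gave 81 of the 163 UMIs of WT replicate 1. Without the highest cell of each gene in each sum, Mmp3 fell by 2.85 on the log2 scale (adjusted p = 0.00082, edgeR).

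The fibroblast class was made of clusters 10 and 27. Cluster 10 held all 8 alveolar fibroblast markers of the fixed list (Inmt, Npnt and Tcf21 among them). Against cluster 27, its leading genes also included the endothelial genes Pecam1, Emcn and Ptprb. Cluster 27 was led by Dcn, Lum and Aspn, held all 6 markers of the myofibroblast or ductal list, and also had the adventitial markers Pi16 and Serpinf1 among its 10 leading genes. Mmp3 in cluster 27 was at 952 and 1121 CPM in WT and at 143 and 57.1 CPM in ERG CKO, but this cluster held 16, 12, 12 and 3 cells and was too small in ERG CKO replicate 2 for the test. In cluster 10, Mmp3 was at 92.9 and 115 CPM in WT and at 16.4 and 35.5 CPM in ERG CKO. There it fell by 2.29 on the log2 scale (SE 0.39, adjusted p = 0.0135, edgeR), where 0.804% of genes were called. The groups did not overlap in either cluster, and overlap over all genes was counted for the whole class only. The summed level of the 9 general fibroblast markers, all detected, was also lower in the ERG CKO fibroblasts, with 13524 and 15006 CPM against 21541 and 24434 CPM in WT, and its part in the Mmp3 result was not tested.

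Fibroblasts also carried endothelial RNA. A UMI of Pecam1, Cdh5 or Cldn5 was present in 40.5% and 40.3% of WT fibroblasts and in 50.6% and 64.0% of ERG CKO fibroblasts, against 99.7% or more of ECs in each library. With those cells left out, Mmp3 was at 415 and 644 CPM in WT and at 91.5 and 55.4 CPM in ERG CKO. The log2 fold change was then -2.62 (SE 0.47, adjusted p = 0.0885, edgeR), no longer past the threshold, in a fit with 9 fibroblasts left in ERG CKO replicate 2 and 0.16% of genes called.

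Mmp2, whose product cuts denatured collagen and basement membrane collagen, was at 225 and 190 CPM in WT fibroblasts and at 133 and 75.0 CPM in ERG CKO fibroblasts. The difference was not called (log2 fold change -0.87, SE 0.27, adjusted p = 0.327, edgeR). Both ERG CKO libraries were below both WT libraries, as for 19.2% of all genes tested in fibroblasts. Mmp2 values lay apart in both clusters, at 204 and 144 CPM against 132 and 76.8 CPM in cluster 10 and at 355 and 392 CPM against 143 and 57.1 CPM in cluster 27. Without ERG CKO replicate 1 the log2 fold change of Mmp2 was -1.52, and without each of the other libraries it ranged from -0.98 to -0.63.

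Timp1, a soluble inhibitor known to be induced by injury and inflammation, was higher in replicate 1 of both groups when all fibroblasts were summed. Replicate 1 had 77.2 CPM in WT and 88.4 CPM in ERG CKO, and replicate 2 had 26.0 CPM in WT and 26.8 CPM in ERG CKO (log2 fold change 0.33, SE 0.46, adjusted p = 0.934). The clusters differed in this. In cluster 10 Timp1 was at 19.8 and 19.2 CPM in WT and at 86.5 and 23.6 CPM in ERG CKO, without a call (log2 fold change 1.82, SE 0.47, adjusted p = 0.129, edgeR). Both ERG CKO libraries lay above both WT libraries there, as for 17.8% of all genes in the whole fibroblast class. In cluster 27 Timp1 was at 429 and 56.1 CPM in WT and at 107 and 57.1 CPM in ERG CKO, and this cluster gave 46 of the 59 Timp1 UMIs of WT replicate 1. In ERG CKO replicate 1, 36 of the 83 Timp1 UMIs came from 1 cell, and the sign of the log2 fold change turned when the highest cell of each gene was left out (-0.08).

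Timp2, Mmp14, Mmp19 and Adamts1 differed by at most 0.21 on the log2 scale between groups in fibroblasts. Timp3 in fibroblasts is given with its other classes below. Timp2 was at 738 and 772 CPM in WT and at 673 and 814 CPM in ERG CKO (log2 fold change -0.03, SE 0.19). Mmp14 was at 74.6 and 52.0 CPM against 55.4 and 91.0 CPM (0.01, SE 0.34), and Mmp19 at 27.5 and 20.8 CPM against 22.4 and 37.5 CPM (0.07, SE 0.45). Adamts1 was at 484 and 388 CPM against 503 and 509 CPM (0.21, SE 0.21). None of these was called, and WT and ERG CKO libraries overlapped for all of them except Adamts1. The median log2 fold change of the 8 members tested was 0.04, against -0.0047 over all genes tested in fibroblasts.

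**Figure D3:**
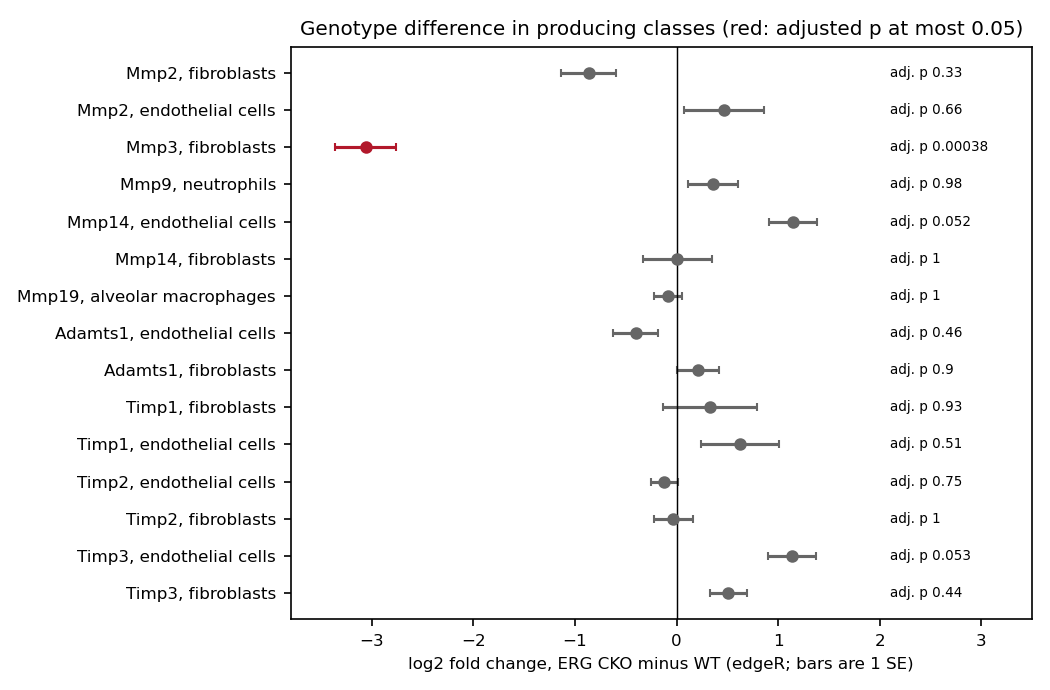
Log2 fold change of ERG CKO minus WT (horizontal axis; bars are 1 SE from the edgeR fit, 2 libraries per group) for each member in its producing classes, with adjusted p at the right and a red point where it was at most 0.05. Mmp3 in fibroblasts (-3.06) is the red point, and Mmp14 (1.15) and Timp3 (1.14) in endothelial cells lie furthest to the right.

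In ECs, the targeted cells, none of the 6 members tested was called, against 300 of 10690 genes (2.81%), and 2 of the 6 had an unadjusted p under 0.05 in edgeR, as did 1735 of the 10690 genes. With DESeq2, Timp3 alone of the 6 was called, as were 332 of all 10690 genes. The median log2 fold change of the 6 members in edgeR was 0.55, against 0.01 over all genes tested in ECs. Timp3 was at 693 and 486 CPM in WT and at 1567 and 1091 CPM in ERG CKO (log2 fold change 1.14, SE 0.24, adjusted p = 0.0531, edgeR). Both ERG CKO libraries thus lay above both WT libraries, as for 27.2% of all genes tested in ECs. The share of ECs with a Timp3 UMI was 66.4% and 49.0% in WT versus 92.1% and 81.6% in ERG CKO, and 36.1%, 21.8%, 64.5% and 48.8% with each cell thinned to 1000 UMIs. In B cells, taken as background, the unthinned shares were 0 to 4.64%. The Timp3 difference passed the threshold without ERG CKO replicate 1 (log2 fold change 0.82, adjusted p = 0.0185) and without ERG CKO replicate 2 (1.39, adjusted p = 0.000746). It did not pass without WT replicate 1 (1.42, adjusted p = 0.156) or without WT replicate 2 (0.90, adjusted p = 0.334).

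Mmp14, the membrane-anchored collagenase, was at 12.5 and 9.45 CPM in WT ECs and at 22.7 and 27.5 CPM in ERG CKO ECs, from 35, 30, 107 and 74 UMIs. The libraries did not overlap (log2 fold change 1.15, SE 0.24, adjusted p = 0.0521, edgeR). Mmp14 passed without ERG CKO replicate 1 (adjusted p = 0.0166) or 2 (0.0428) and not without WT replicate 1 (0.175) or 2 (0.323). With the replicate number as a block, which also separates the libraries with Xist reads from those with Ddx3y reads, Timp3 and Mmp14 were both called in ECs (adjusted p = 0.000113 and 0.0137, edgeR). That block called 1008 of all 10690 genes in ECs, against 300 without it. The share of ECs with a Mmp14 UMI was 5.46% and 4.05% in WT versus 12.5% and 13.2% in ERG CKO, and 2.01%, 1.46%, 2.81% and 2.43% after thinning. B cells, as a background, had 0 to 0.515%.

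The other members in ECs were not called. Adamts1 was at 713 and 451 CPM in WT and at 492 and 410 CPM in ERG CKO (log2 fold change -0.40, SE 0.23, adjusted p = 0.458), and its libraries overlapped. Timp2 was at 391 and 410 CPM against 349 and 409 CPM (-0.12, SE 0.13). Timp1 was at 3.93 and 3.78 CPM against 6.80 and 5.20 CPM (0.63, SE 0.39), on 11 to 32 UMIs per library. Mmp2 was at 6.78 and 5.36 CPM against 10.6 and 5.94 CPM (0.47, SE 0.40), on 16 to 50 UMIs per library.

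The EC class joined 5 clusters whose sizes differed between groups, so each was also fitted alone, an alternative chosen after the data were seen. The unnamed clusters 3 and 12 were not part of the class. The members and the listed pathway genes were kept out of the clustering. By markers fixed for EC subtypes, cluster 14 held all 7 aerocyte capillary (aCap) markers such as Ednrb and Car4, cluster 17 held 6 of 7 vein markers such as Slc6a2 and Vwf, and cluster 6 held 3 of 7 general capillary (gCap) markers, Gpihbp1, Kit and Glp1r. Clusters 1 and 2 held fewer than 3 markers of any subtype and are given by number. Cluster 1 made up 48.0% and 36.6% of WT ECs and 25.9% and 15.8% of ERG CKO ECs, and cluster 2 made up 15.2% and 22.1% of WT ECs and 34.6% and 38.1% of ERG CKO ECs.

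**Figure D4:**
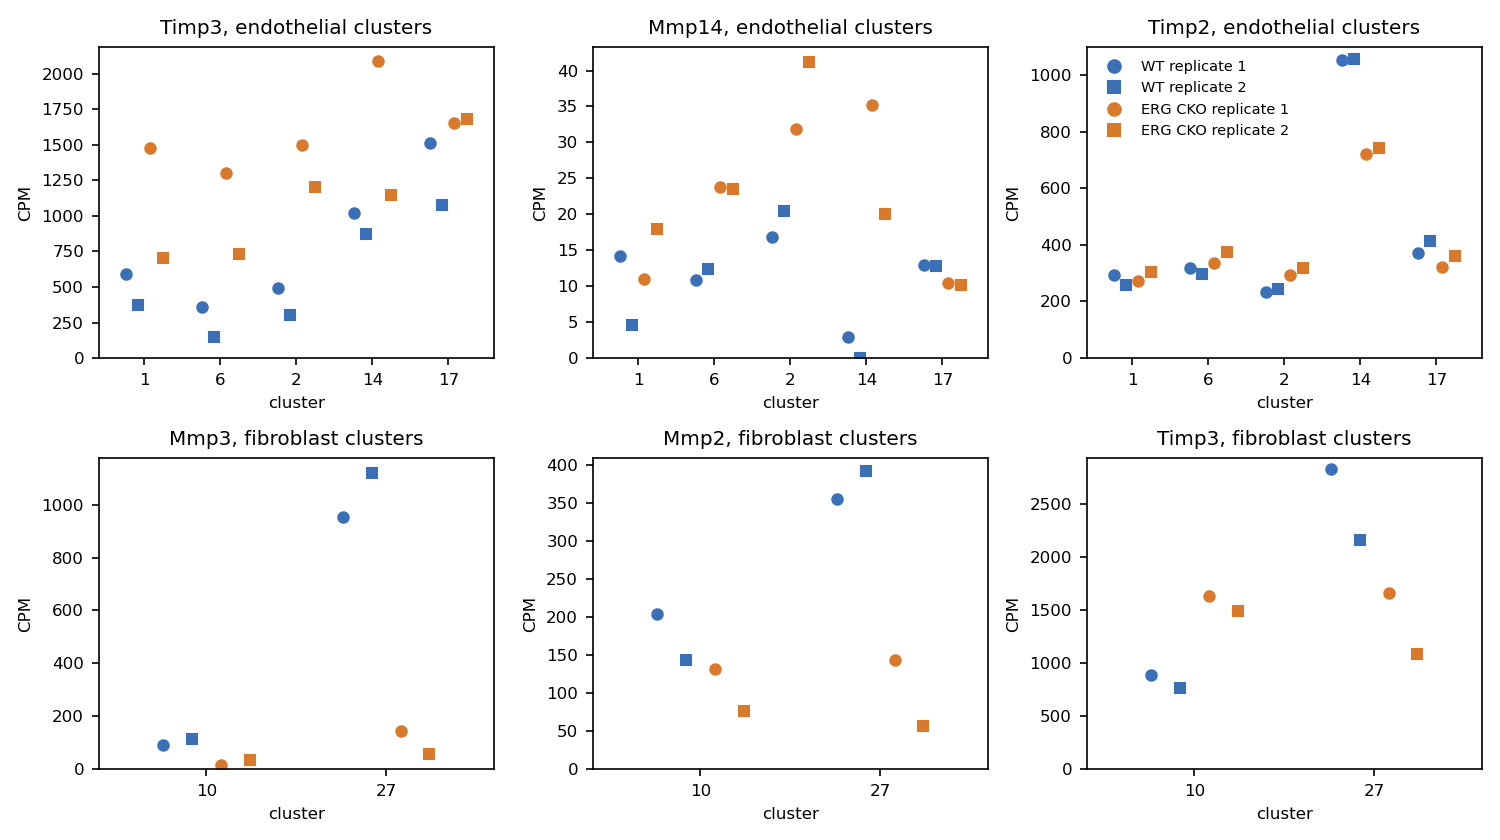
CPM of Timp3, Mmp14 and Timp2 in the 5 endothelial clusters (top) and of Mmp3, Mmp2 and Timp3 in the 2 fibroblast clusters (bottom), with 1 point per library, blue for WT and orange for ERG CKO, circles for replicate 1 and squares for replicate 2. Timp3 is higher in both ERG CKO libraries in all 5 endothelial clusters, and Mmp14 in the aCap-like cluster 14 lies at 2.90 and 0 CPM in WT and at 35.2 and 20.0 CPM in ERG CKO.

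Timp3 was called in cluster 2 and in the gCap-like cluster 6. In cluster 2 it was at 495 and 300 CPM in WT and at 1499 and 1205 CPM in ERG CKO and rose by 1.72 on the log2 scale (SE 0.22, adjusted p = 0.000289, edgeR), where 9.68% of genes were called. In cluster 6 it was at 361 and 149 CPM in WT and at 1299 and 733 CPM in ERG CKO and rose by 2.01 (SE 0.33, adjusted p = 0.0109, edgeR), where 0.287% of genes were called. The WT level of Timp3 was lowest in this cluster. In cluster 1 Timp3 was at 588 and 375 CPM in WT and at 1473 and 703 CPM in ERG CKO (log2 fold change 1.18, SE 0.30, adjusted p = 0.252, 0.0804% of genes called). In the aCap-like cluster 14 it was at 1021 and 870 CPM against 2090 and 1143 CPM (0.76, SE 0.24, adjusted p = 0.0614). In the vein-like cluster 17, where WT ECs had the most Timp3, it was at 1513 and 1075 CPM against 1652 and 1680 CPM (0.30, SE 0.22, adjusted p = 0.767, 0.0181% of genes called). With the 5 clusters weighted equally, Timp3 averaged 796 and 554 CPM in WT and 1603 and 1093 CPM in ERG CKO, close to the values of the whole class. Whether the Timp3 difference itself differed between clusters was not tested.

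Mmp14 was called in cluster 14, where 9.39% of genes were called. WT replicates 1 and 2 gave 1 and 0 UMIs of Mmp14 there and ERG CKO replicates 1 and 2 gave 20 and 10, from 45, 70, 86 and 77 cells. The adjusted p was 0.00744 (edgeR). On so few WT counts the fitted fold depends on the prior count, and the ratio of the summed UMIs per total was 24.1 with an exact 95% counting interval of 4.0 to 982, which covers counting error only. In cluster 2 Mmp14 was at 16.9 and 20.5 CPM in WT and at 31.9 and 41.2 CPM in ERG CKO (log2 fold change 0.85, SE 0.35, adjusted p = 0.173). In cluster 6 it was at 10.9 and 12.4 CPM against 23.8 and 23.6 CPM (1.0, SE 0.52, adjusted p = 0.790). Cluster 1 gave 14.2 and 4.67 CPM against 11.1 and 17.9 CPM, and cluster 17 gave 12.9 and 12.8 CPM against 10.5 and 10.2 CPM, so the ERG CKO libraries were not above both WT libraries in these.

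Timp2 in ECs was also uneven between clusters. It was highest in the aCap-like cluster 14, at 1053 and 1057 CPM in WT and at 721 and 741 CPM in ERG CKO (log2 fold change -0.55, SE 0.16, adjusted p = 0.0508, edgeR), just outside the threshold. In cluster 2 it went the other way without a call, at 232 and 243 CPM in WT and at 294 and 319 CPM in ERG CKO (0.30, SE 0.17, adjusted p = 0.335). Mmp2 in ECs was found mostly in the vein-like cluster 17, at 41.9 and 43.5 CPM in WT and at 41.9 and 27.2 CPM in ERG CKO. Every other endothelial cluster had at most 8.51 CPM of Mmp2. Adamts1 was low in cluster 14, at 60.9 and 35.1 CPM in WT and at 106 and 40.0 CPM in ERG CKO, and at 154 CPM or more in each library of the other endothelial clusters.

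Timp3 was also higher in ERG CKO libraries of other classes, none of them called with all cells of the class. Its log2 fold change was above 0 in all 9 classes where it was tested, and in 8 of the 9 both ERG CKO libraries lay above both WT libraries, as did 20.4% of all gene and class pairs tested (40.5% in epithelial cells and 27.2% in ECs). A gene at low level can pass the filter through the group where it is high, so this count covers only classes that passed. Lymphatic ECs, too few to test, had the highest mean of Timp3 and did not share the order, at 2453 and 2937 CPM in WT and at 2488 and 1627 CPM in ERG CKO. The classes come from the same 4 mice and are not independent. Timp3 in mural cells was at 719 and 323 CPM in WT and at 4083 and 1368 CPM in ERG CKO (log2 fold change 2.39, SE 0.57, adjusted p = 0.276, 0.0777% of genes called). These rest on 55, 41, 20 and 10 cells, and 1 cell gave 283 of the 595 UMIs of ERG CKO replicate 1. Without the highest cell of each gene in each sum Timp3 was called in mural cells (2.22, adjusted p = 0.0136), without ERG CKO replicate 1 it was not (0.99, adjusted p = 0.144), and without ERG CKO replicate 2 it was (2.94, adjusted p = 1.3e-25). Timp3 in mural cells was also called with the replicate number as a block (2.23, adjusted p = 0.00493, edgeR), where 21 of 3862 genes were called. The summed endothelial markers in mural cells were lower in ERG CKO, at 5298 and 1825 CPM against 8619 and 6569 CPM in WT. Timp3 in fibroblasts was at 1155 and 1022 CPM in WT and at 1637 and 1451 CPM in ERG CKO (0.51, SE 0.18, adjusted p = 0.442).

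Timp3 in epithelial cells was at 465 and 340 CPM in WT and at 977 and 708 CPM in ERG CKO (log2 fold change 0.71, SE 0.25, adjusted p = 0.553, edgeR). In epithelial cells 0% of 7786 genes were called in edgeR and 13 genes in DESeq2, and 623 had an unadjusted p under 0.05 in edgeR. The 9 endothelial markers, all detected, summed to 1078 and 1095 CPM in WT epithelial cells and to 3695 and 1700 CPM in ERG CKO epithelial cells. The class also differed in make-up. Its 8 airway markers summed to 172664 and 190103 CPM in WT and to 68954 and 7128 CPM in ERG CKO, its 6 AT1 markers to 4728 and 1672 CPM against 6565 and 7041 CPM, and cluster 23 gave 27 of 57 and 10 of 30 WT cells and 50 of 66 and 9 of 19 ERG CKO cells. The part of endothelial RNA and of this make-up in the Timp3 values was not tested. Adamts1 in epithelial cells was at 98.5 and 69.3 CPM in WT and at 208 and 158 CPM in ERG CKO, and Mmp14 at 7.36 and 2.47 CPM against 15.6 and 25.8 CPM, neither of them called.

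**Figure D5:**
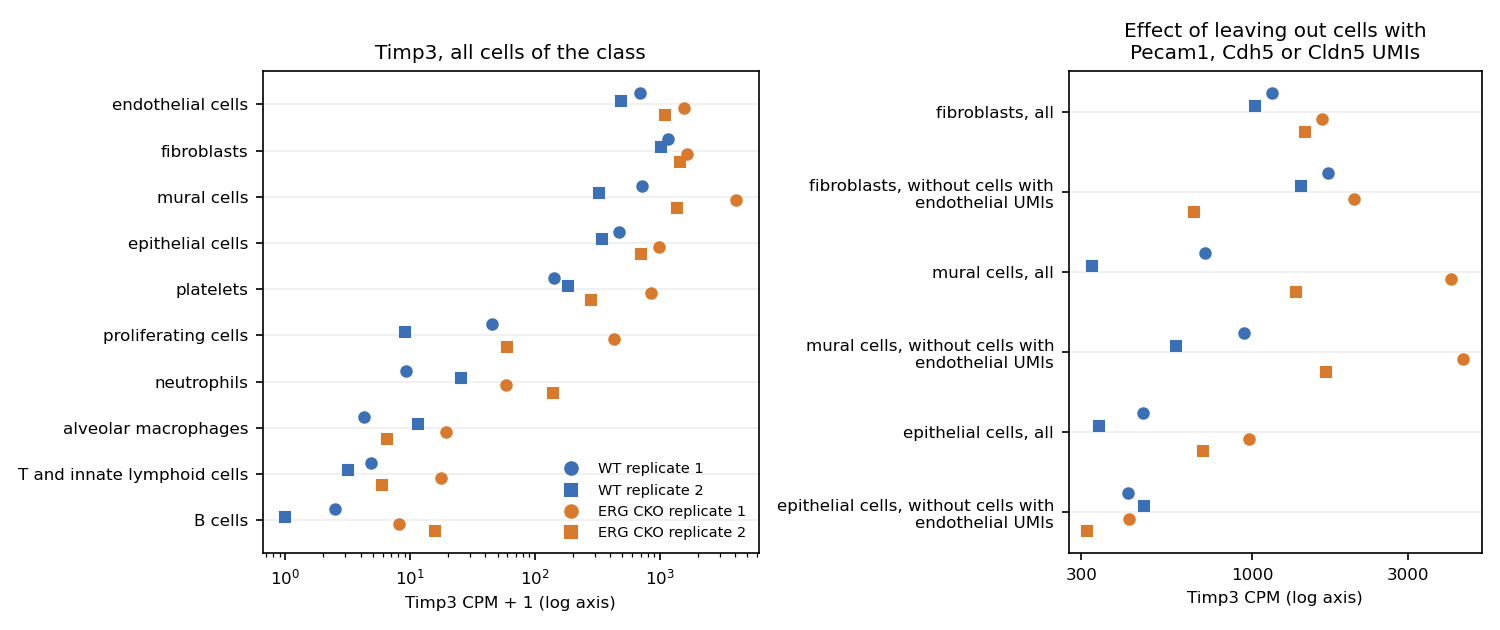
Left, CPM + 1 of Timp3 (log axis) in 10 cell classes, with 1 point per library, blue for WT and orange for ERG CKO, circles for replicate 1 and squares for replicate 2. Right, CPM of Timp3 (log axis) in fibroblasts, mural cells and epithelial cells with all cells and without cells that had a UMI of Pecam1, Cdh5 or Cldn5, where the groups overlap in fibroblasts but not in mural cells.

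Timp3 was low in leukocytes, and it was tested there in neutrophils, T and innate lymphoid cells and alveolar macrophages, with no call. Both ERG CKO libraries lay above both WT libraries in B cells, neutrophils, T and innate lymphoid cells and non-classical monocytes. Of all genes tested in these classes, 14.9%, 16.3%, 14.7% and 21.8% had that order. In B cells and non-classical monocytes Timp3 did not pass the filter on low counts. The groups overlapped in alveolar macrophages, NK cells, dendritic cells, classical monocytes and interstitial macrophages, and interstitial macrophages had a higher mean in WT (59.3 CPM) than in ERG CKO (24.7 CPM). Mast cells or basophils had no cell in ERG CKO replicate 2 and are not compared. Timp3 in B cells was at 1.48 and 0 CPM in WT and at 7.07 and 14.7 CPM in ERG CKO, from 1, 0, 10 and 14 UMIs, and in neutrophils at 8.19 and 24.4 CPM against 57.6 and 137 CPM. T and innate lymphoid cells were at 3.84 and 2.18 CPM against 16.5 and 4.89 CPM. The summed level of the 9 endothelial markers, all detected, was 358 and 304 CPM in WT B cells and 296 and 313 CPM in ERG CKO B cells, against 15558 to 20711 CPM in ECs. The part of free or endothelial RNA in the Timp3 levels of these leukocytes was not tested.

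Leaving out the cells with a Pecam1, Cdh5 or Cldn5 UMI, again an alternative chosen after the data were seen, gave different outcomes by class. In epithelial cells Timp3 was then at 418 and 467 CPM in WT and at 419 and 313 CPM in ERG CKO, and the log2 fold change turned to -0.36 (SE 0.36, adjusted p = 1.0, edgeR), where 0% of 3161 genes were called and 47 had an unadjusted p under 0.05. Such cells had made up 29.8% and 43.3% of WT versus 57.6% and 47.4% of ERG CKO epithelial cells. In fibroblasts Timp3 was at 1709 and 1415 CPM in WT and at 2050 and 664 CPM in ERG CKO, and the log2 fold change turned to -0.13 (SE 0.45, adjusted p = 1.0), with 12 UMIs left in ERG CKO replicate 2. In mural cells the difference stayed, with 947 and 584 CPM in WT and 4437 and 1684 CPM in ERG CKO, and Timp3 rose by 2.04 on the log2 scale (SE 0.44, adjusted p = 0.0289, edgeR, 3.01% of genes called) on 17, 19, 10 and 5 cells. Fibroblast cluster 10 alone, with all its cells, gave a call for Timp3 (882 and 763 CPM against 1635 and 1489 CPM, log2 fold change 0.94, SE 0.19, adjusted p = 0.0319), whereas cluster 27 went the other way, at 2828 and 2158 CPM in WT and at 1655 and 1086 CPM in ERG CKO.

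The members of the leukocytes showed no call. Mmp9 in neutrophils was at 1228 and 1599 CPM in WT and at 1442 and 2109 CPM in ERG CKO (log2 fold change 0.36, SE 0.25, adjusted p = 0.982, edgeR). The groups overlapped. Neutrophils with a Mmp9 UMI made up 81.6% and 87.5% in WT versus 97.6% and 96.6% in ERG CKO, and 55.6%, 67.3%, 73.2% and 86.9% after thinning. In this class 0% of 2931 genes were called in edgeR and 0 in DESeq2, and 139 had an unadjusted p under 0.05 in edgeR. Over all cells of a library together, Mmp9 was at 10.9 and 29.3 CPM in WT and at 29.9 and 63.2 CPM in ERG CKO, and the libraries held 38, 56, 82 and 87 neutrophils. The whole-suspension level of Mmp9 thus moved with the number of neutrophils captured, and fewer cells and less RNA per cell cannot be told apart in it.

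Mmp19 in alveolar macrophages was at 241 and 269 CPM in WT and at 266 and 210 CPM in ERG CKO (log2 fold change -0.08, SE 0.14, adjusted p = 0.999, edgeR). Macrophages with a Mmp19 UMI made up 74.5% and 70.5% in WT versus 73.5% and 69.2% in ERG CKO. Timp2 in the same cells was at 99.7 and 93.5 CPM against 106 and 114 CPM (0.19, SE 0.13). In alveolar macrophages 0% of 9271 genes were called in edgeR and 1 in DESeq2, and 440 had an unadjusted p under 0.05 in edgeR.

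A member called in fibroblasts and not in ECs is not thereby shown to differ between them, so the difference of the effects was tested in both classes together. Of 11051 genes, 0.95% were called and none of the 8 members tested was. The difference of log2 fold changes, ECs minus fibroblasts, was 4.35 for Mmp3 (SE 1.09, adjusted p = 0.0743, edgeR), on 4, 0, 12 and 0 Mmp3 UMIs in ECs. It was 1.43 for Mmp2 (SE 0.36, adjusted p = 0.0790), 0.67 for Timp3 (SE 0.17, adjusted p = 0.0767) and 1.08 for Mmp14 (SE 0.38, adjusted p = 0.359). Adamts1 had a difference of -0.55 (SE 0.20, adjusted p = 0.375), and those of Timp1, Timp2 and Mmp19 were smaller in size. With no filter on low counts, 3 of 9 members (Mmp3, Mmp2 and Timp3) were called, in a fit that called 202 of all 17641 genes.

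The rest of the pathway was taken from 6 lists of 57 genes, of other secreted MMPs, other membrane-bound MMPs, other ADAMTS proteases, ADAM sheddases, other inhibitors, and activators or clearance receptors. Over the 14 classes 165 pairs of a listed gene and a class were tested, and none was called outside ECs in edgeR. Plat, the tissue plasminogen activator, which turns plasminogen into plasmin, an activator of several proMMPs, was called in ECs. It was at 166 and 136 CPM in WT and at 420 and 429 CPM in ERG CKO (log2 fold change 1.45, SE 0.15, adjusted p = 0.00785, edgeR). Both ERG CKO libraries lay above both WT libraries, as for 27.2% of all genes tested in ECs. In ECs 21 listed genes were tested and none was called lower, with a median log2 fold change of 0.08 against 0.01 over all genes. In fibroblasts 20 were tested and 0 called in edgeR, 4 with an unadjusted p under 0.05 (632 of all 7618 genes had one) and 0 called in DESeq2, with a median of -0.02.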

How the data were processed

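The authors deposited 1 matrix of raw UMI counts per gene and cell, made from 10x libraries of whole lung (Cell Ranger 3.1.0 and mm10, per the labels' processing notes), and all 9363 cells in it were kept. The members and lists were chosen with earlier results of these data known. Cells were normalised, aligned by library and clustered with Seurat 5.3.0 (2000 variable genes, 30 dimensions, resolution 0.8), leaving out members, listed pathway genes, Erg and sex-linked genes, and clusters were named from fixed markers (at least 3 detected in 10% of cells). Doublets (60 cells, scanpy 1.11.5) were kept. Counts were summed per library and class, and classes with at least 10 cells in every library (5 in the added fits) were tested with edgeR 4.0.16 (TMM, filterByExpr, quasi-likelihood test, Benjamini-Hochberg over all genes of a class), which was tested on simulated data. DESeq2 was 1.42.0. All 9 members are named, with pathway genes that were called (apart from a result not reported here) and the 3 most similar genes per member. The study's methods give 2 mice per group, so p-values rest on the spread between 2 mice. Replicates differed by more than sampling noise (chi-square per degree of freedom 15.9 in WT and 17.4 in ERG CKO). Counting intervals cover counting error only.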

Additional observations from a re-analysis of the deposited data

How the results depend on the processing

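Of 238 values of the log2 fold changes under other settings chosen at the outset, 203 kept their direction and their side of the threshold, 22 kept the direction and passed it, none lost it and 13 turned. Of 36 under settings added after the data were seen, 20 kept both, 5 passed, 1 no longer passed and 10 turned. Mmp3 in fibroblasts was called under every setting chosen at the outset, with -3.30 to -2.79 when 1 library was left out, and not when cells with endothelial UMIs were left out. Pairs of a member and a class called numbered 1 in the edgeR fit, 2 with DESeq2, 3 without TMM and 15 without the filter on low counts. They numbered 3 at resolution 1.2, 3 without alignment, 2 with cells of at most 10% mitochondrial UMIs and 3 without the highest cell of each gene. Without the filter, calls over all genes also rose, in epithelial cells from 0 of 7786 to 253 of 15438. Members called in ECs numbered 0 in the edgeR fit, 1 with DESeq2, 2 without TMM and 2 without the filter. Over all genes the EC calls were then 300, 332 and 336 of 10690 and 1132 of 16996. Members called in ECs numbered 2 at resolution 1.2, 2 without alignment, 1 with the mitochondrial limit and 1 without the highest cell. EC calls over all genes were then 336 of 10684, 370 of 10654, 310 of 10729 and 321 of 10508. Clusters 2, 6 and 14 alone gave 1 member each, where 9.68%, 0.287% and 9.39% of genes were called. In fibroblasts the members called numbered 1 in the edgeR fit, 2 in cluster 10 alone and 0 without cells with endothelial UMIs. Of all genes, 0.591%, 0.804% and 0.16% were called in these 3 fits. The test of ECs against fibroblasts gave 0 members, with 105 of 11051 genes called, and 3 members without the filter, with 202 of 17641 genes called. The causes of these changes were not tested, and more genes enter the fit without the filter.

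Replicate numbers are shared by the groups, but the labels give no basis for a pairing. By Xist and Ddx3y reads the number separates the sexes in both groups, so the block is also a block on sex. The correlation of same-numbered deviations was 0.19 in ECs and -0.01 in fibroblasts. With the replicate block, 8 pairs of a member and a class were called, 2 of them in ECs (Timp3, 1.13, adjusted p = 0.000113, and Mmp14, 1.14, adjusted p = 0.0137, edgeR) and another being Timp3 in mural cells (2.23, adjusted p = 0.00493), as were 3 members in the test of ECs against fibroblasts. Over all genes the block called 1008 of 10690 in ECs, against 300 without it, and 21 of 3862 in mural cells, against 3. In the test of ECs against fibroblasts it called 189 of 11051 genes, against 105.

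The log2 fold changes that turned were small in size in most cases. Mmp14 in fibroblasts was -0.0090 without the filter, -0.028 at resolution 0.4, -0.025 at resolution 1.2, -0.13 without the highest cell, -0.27 without cells with endothelial UMIs and between -0.22 and 0.43 with 1 library left out. With 1 library left out, Mmp19 in alveolar macrophages lay between -0.26 and 0.070, Mmp2 in ECs between -0.10 and 0.79, Timp1 in fibroblasts between -1.12 and 1.46 and Timp2 in fibroblasts between -0.14 and 0.067. Timp1 in fibroblasts was -0.076 without the highest cell and -0.52 without cells with endothelial UMIs, where Timp3 was -0.13 in fibroblasts and -0.36 in epithelial cells. In single clusters, Timp2 was 0.049, 0.30 and 0.20 in clusters 1, 2 and 6 and 0.19 in cluster 10, Adamts1 was 0.66 in cluster 14 and Mmp2 was -0.27 in cluster 17. Depth limits Mmp2, Mmp3 and Timp1 in ECs, where a library held 50 UMIs or fewer of each, and all members in ERG CKO replicate 2 of fibroblasts (25 cells) and mural cells (10 cells).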
